A study of Homo sapiens with 4 samples.

Results

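Peaks of N7-methylguanosine (m7G) antibody enrichment were examined on the mRNAs that carried several of them. A gene name was kept when it had 3 or more rows in the peak table of each replicate. This left 115 genes of the 4368 named in either table, and 4.91% of the 2342 genes with a peak in both. They held 447 of the 4326 peaks of replicate 1 (10.3%) and 453 of the 4862 peaks of replicate 2 (9.32%). The genes were thus chosen by the number of peaks that each table lists for them. Everything below about how many peaks they had, how strong they were and whether they recurred is a description and carries no test.

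Untreated U2OS cells, an established human osteosarcoma line, were the source of all libraries. From poly(A) RNA, 2 input libraries and 2 libraries pulled down with an anti-m7G antibody (IP) were made, and no other treatment or genotype was compared. A peak is a stretch of RNA called as enriched in an IP library over input, and its fold is the deposited ratio of IP to input. The tables give no read counts, so the depth behind a fold cannot be read from them. Whether the replicates came from different cultures is not stated in the labels, and their spread may be technical. Of 8 mesenchymal and osteoblast markers, 5 had a peak in both replicates (COL1A1, VIM, SPARC, CDH2 and FN1), as against none of 6 haematopoietic and none of 4 hepatocyte markers. Of the epithelial markers, 2 of 6 had one (KRT18 and CLDN4), and so did 2 of 6 neuronal markers (SLC17A7 and NEFL). A peak is not an expression level, and COL1A1 was the only one of these markers among the 115 genes.

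m7G is a guanine methylated at its N7 position, which gives the base a positive charge. It forms the cap that every nuclear-encoded mRNA carries at its 5′ end, where it protects the RNA and recruits the translation initiation machinery. It has also been mapped inside RNA, long known in tRNA and rRNA and more recently in mRNA. An antibody against m7G can therefore meet the modified base near the cap and inside the transcript.

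A listed transcript start marks where the cap would lie, and its first bases can be printed. Whether a peak there comes from the cap or from m7G inside the RNA was not tested. RefSeq (GRCh38.p14) lists 121 start sites for 91 of the 115 genes. At 28 of these starts, on 27 genes, a peak of each replicate touched the first 50 bases, and in every case it was the first peak of its gene along the strand. At 19 starts on 19 genes both replicates covered the first 30 bases completely. The 30 bases are printed 5′ to 3′ for the 5 of these 19 with the highest folds, ranked by the lower value of both replicates, and for the 3 with the lowest. They were chosen after their values were seen, and guanines are in capitals.
HEXIM1: aGcaGttGGaaGttGGcaGGtGGaGaGGca
PPP1R18: GcGctGaGacGcGcccGGctGctGccGccG
DAZAP1: GcGcGGtGaccGttGGcGccGaGGGGaGGa
SBF1: GGGcGGGccGGctGGctGGGaaGatGGcGG
PABPN1: aGtctGaGcGGcGatGGcGGcGGcGGcGGc
CHD4: tGactcGGGccaGtGtaGaGGtcctcaGGc
NONO: GtttccGGcGGtcGcGcGctcttttctcGG
SFN: acaGaGtccGGcattGGtcccaGGcaGcaG

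The HEXIM1 stretch, from the gene of an inhibitor of the elongation kinase P-TEFb, lies at chr17:45148475-45148504 on the plus strand. Its peak had a fold of 27.8 in replicate 1 and 25.9 in replicate 2. PPP1R18, which encodes a regulatory subunit of protein phosphatase, starts at chr6:30686616-30686645 on the minus strand and had folds of 24.7 and 22.5. A fold belongs to its whole peak, not to the printed bases alone. The joined PPP1R18 peaks span chr6:30686581-30686940, so they also reach upstream of this start. The start of DAZAP1, an RNA-binding protein gene, is at chr19:1407586-1407615 on the plus strand, with folds of 17.8 and 17. In these 3 genes the replicates lay close to each other. SBF1, a myotubularin-related gene, starts at chr22:50475006-50475035 on the minus strand and had 16.3 and 20. PABPN1, which encodes the nuclear poly(A)-binding protein, starts at chr14:23321457-23321486 on the plus strand and had 18 and 14.5. At the low end stood CHD4, the remodelling ATPase of the NuRD complex, at chr12:6606422-6606451 on the minus strand, with folds of 2.34 and 2.59. The joined CHD4 peaks reach upstream to 6607403, and the annotated 5′ end of the gene is at 6607379, so this start is not its 5′-most place. NONO, a paraspeckle protein gene, starts at chrX:71283635-71283664 on the plus strand and had 1.75 and 2.01. SFN, which encodes 14-3-3 sigma, starts at chr1:26863149-26863178 on the plus strand and had 2.09 and 1.66.

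These first bases were rich in guanine. The strongest 5 held 14, 12, 16, 18 and 16 guanines of 30 in the order printed, and the weakest 3 held 11, 10 and 10. Between these ends the count did not follow the fold: COL5A1, with a lower fold of 8.3, held 9, the fewest of the 19, and MAP7D1, with 3.95, held 16. Over the 19 covered starts the median was 14 (range 9 to 18), and over the 89 starts of these genes whose first 30 bases met no peak of either replicate it was 11. On genes outside the 115 that had a peak in both replicates, 206 covered starts had a median of 13 and 1974 starts with no peak on these bases a median of 11, while all 35116 listed starts had 9. The covered share of starts was 15.7% of 121 on the 115 genes and 7.96% of 2587 on the other genes. The 115 genes were chosen for having several peaks, any of which could cover a start, so nothing is drawn from this difference. A gene can have several listed starts, and a listed start need not be the one used in these cells.

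The number of peaks per gene was similar in both tables. The median was 3 rows in replicate 1 and 4 in replicate 2, and 94 of 115 genes had row counts within 1 of each other. The counts were equal in 61 genes, higher in replicate 1 in 25 and higher in replicate 2 in 29. AGRN, which encodes the proteoglycan agrin of basement membranes, had the most rows, 9 in each table. Just inside the threshold, 47 genes had exactly 3 rows in both tables. Just outside it, 48 genes had 3 rows in replicate 1 and 2 in replicate 2, and 81 had 2 and 3. Taken alone, replicate 1 had 208 genes with 3 or more rows and replicate 2 had 277, and 25 genes reached 3 in a table while absent from the other.

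Folds on these mRNAs were moderate. Their median was 3.01 in replicate 1, with quartiles of 2.02 and 5.17, and 2.72 in replicate 2, with quartiles of 1.89 and 4.72. All other peaks had medians of 4.41 and 3.55. Folds ran from 1.06, on the pyruvate kinase gene PKM, to 98.7, on the sorting nexin gene SNX8, in replicate 1. In replicate 2 they ran from 1.12, on GAPDH, to 135, on the transcription factor gene POU3F3. Within a gene, the highest fold was typically 2.43 times the lowest in each replicate (medians). On SNX8 it was 26.0 times the lowest in replicate 1 and 38.7 times in replicate 2, while 20 and 15 genes stayed under 1.5.

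A peak was counted as recurring when it overlapped a peak of the same gene name and strand in the other replicate by at least 1 bp. Of the peaks on the 115 genes, 363 of 447 (81.2%, 95% Wilson interval 77.3 to 84.6) recurred from replicate 1 to 2, and 356 of 453 (78.6%, 74.6 to 82.1) from replicate 2 to 1. Over all peaks of the tables the shares were 62.6% and 55.9%. A peak on a gene that is absent from the other table cannot recur, and such genes are part of these shares. Against genes with a smaller count of rows in both tables the gap was small: 83.9% and 77.4% of peaks recurred where the smaller count was 2, and 78.8% and 75.0% where it was 1. The intervals cover counting error only, and peaks of a gene are not independent of each other.

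Joining overlapping peaks of both tables gave 527 sites, of which 346 (65.7%, 61.5 to 69.6) were present in both replicates, 84 in replicate 1 alone and 97 in replicate 2 alone. Most shared sites, 322 of 346, paired 1 peak with 1 peak, and at 24 a table had more than 1 peak. By gene, 85 of 115 (73.9%) had 3 or more shared sites and 30 shared every site. Under stricter matching fewer did, 13 with 50% reciprocal overlap and 11 with midpoints within 100 nt. At the other end, 25 genes shared 2 sites, 3 shared 1 and 2 shared none. So 3 rows in both tables did not mean 3 recurring places on 30 of the 115 mRNAs.

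Genes with textbook coding sequences free of introns gave the clearest picture of several separate peaks. Within such a coding sequence, genomic distance is distance along the RNA. Introns outside it were not checked, and the annotated span of POU3F3 is 74498 nt. A group of 7 such genes (POU3F3, JUND, SOX4, SOX12, HNRNPA0, HEXIM1 and SFN) was formed after the values were seen, and all their peaks were listed as 1 block. They shared 22 of 26 sites (84.6%, 66.5 to 93.9). POU3F3, a POU-domain transcription factor of neural development, had 6 peaks in each table and all 6 recurred. Along the strand its folds were 6.53, 74, 18.5, 13.5, 4.24 and 9.55 in replicate 1, and 6.87, 135, 7.27, 12.5, 14.3 and 3.61 in replicate 2. The second peak was the highest in both, at chr2:104855261-104855709 in replicate 1 and chr2:104855232-104855560 in replicate 2. The order of the others changed: the fifth peak was the lowest of the gene in replicate 1 and next to the highest in replicate 2.

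HEXIM1 had the first peak highest, with 27.8, 2.31 and 3.26 in replicate 1 and 25.9, 2.29 and 3.06 in replicate 2. All 3 recurred, in the same order of strength. SOX12, an SRY-related transcription factor gene, had its middle peak highest, with 3.34, 12.3 and 1.88 in replicate 1 and 2.2, 11.7 and 1.65 in replicate 2. JUND, an AP-1 subunit gene, had 6.64, 2.19 and 2.23 in replicate 1 and 6.23, 2.18 and 2.09 in replicate 2, where a further peak of 1.29 at the 3′ end had no partner. Thus the highest of 3 recurring peaks lay first on HEXIM1 and JUND and in the middle on SOX12, in both replicates. SFN shared 2 of 3 sites, and its folds were low in both tables (1.67 to 2.14 and 1.17 to 2.08).

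**Figure D1:**
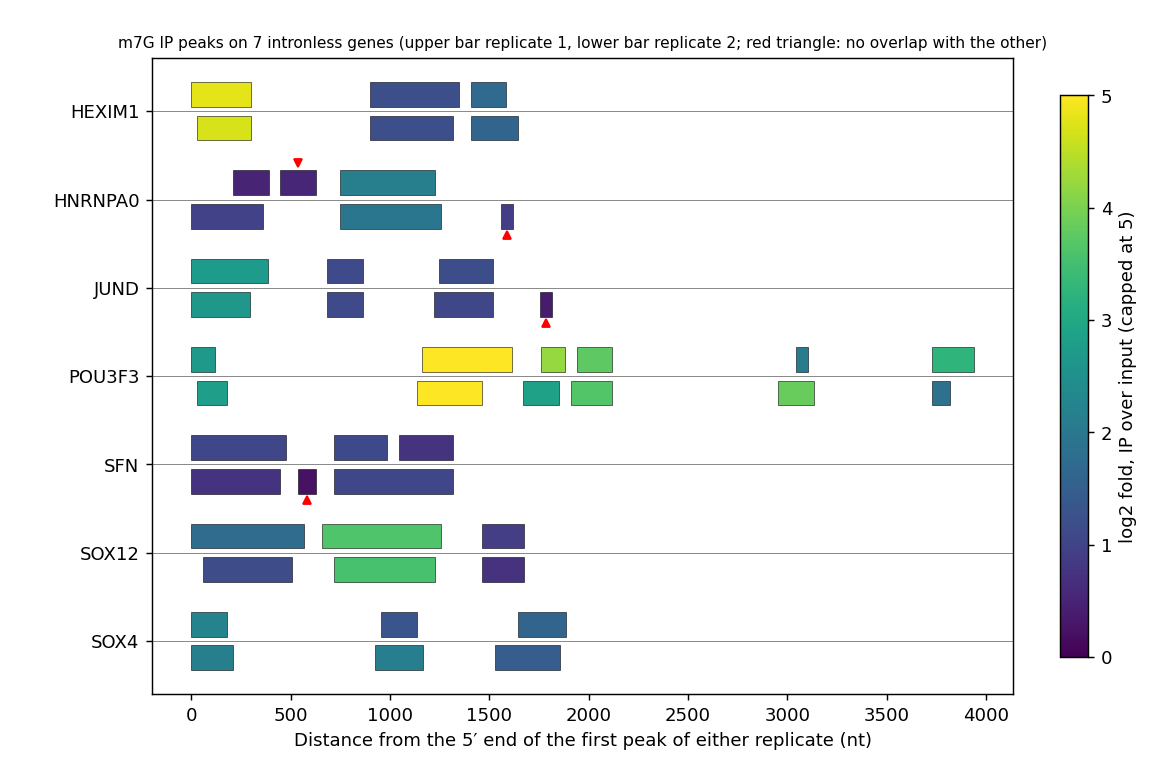
Peaks of 7 genes with intronless coding sequences, by distance in nt from the 5′ end of the first peak of either replicate, with replicate 1 as the upper bar and replicate 2 as the lower bar of each gene. Colour is the log2 fold of IP over input, capped at 5, and a red triangle marks a peak with no overlapping peak in the other replicate. Each of the 6 peaks of POU3F3 overlaps a peak of the other replicate, with differing ends.

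The place of a peak in the order along the strand went with its fold. First peaks had a median fold of 3.90 in replicate 1 and 3.48 in replicate 2, inner peaks 2.62 and 2.39, and last peaks 3.25 and 2.94. The highest fold of the gene was its first peak in 53 genes in replicate 1 (46.1%) and in 52 in replicate 2 (45.2%). It was an inner peak in 34 and 39 genes and the last in 28 and 24. First peaks made up 25.7% and 25.4% of peaks pooled over genes. In a gene with 3 peaks the first is a larger share, so the pooled shares are no exact reference for these counts of genes. The strongest peak of both replicates was the same site in 80 of 115 genes (69.6%). It was of the same class of place in 83, namely first in 43, inner in 25 and last in 15.

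First and last peaks had a higher recurring share than inner ones in both replicates. In replicate 1, 95 of 115 first peaks (82.6%, 74.7 to 88.5), 165 of 217 inner peaks (76.0%, 69.9 to 81.2) and 103 of 115 last peaks (89.6%, 82.6 to 93.9) recurred. In replicate 2 the counts were 97 of 115 (84.3%, 76.6 to 89.9), 169 of 223 (75.8%, 69.8 to 80.9) and 90 of 115 (78.3%, 69.9 to 84.8). The intervals of first and inner peaks overlapped in both replicates, while those of inner and last peaks did so in replicate 2 and not in replicate 1. First and last peaks were also the stronger ones, and the part of the fold in these shares was not tested. Counted as sites, 88 of 115 first sites (76.5%), 173 of 297 inner sites (58.2%) and 85 of 115 last sites (73.9%) were in both tables. The inner share fell to 34.5% with 50% reciprocal overlap, where first and last sites had 67.0% and 51.3%. With midpoints within 100 nt it was 28.7%, against 53.9% and 56.5%. The numbers of first and last sites are fixed by the number of genes, so a failed match at any place adds an inner site. The lower inner share of sites, and its fall under stricter rules, follow in part from this counting.

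**Figure D2:**
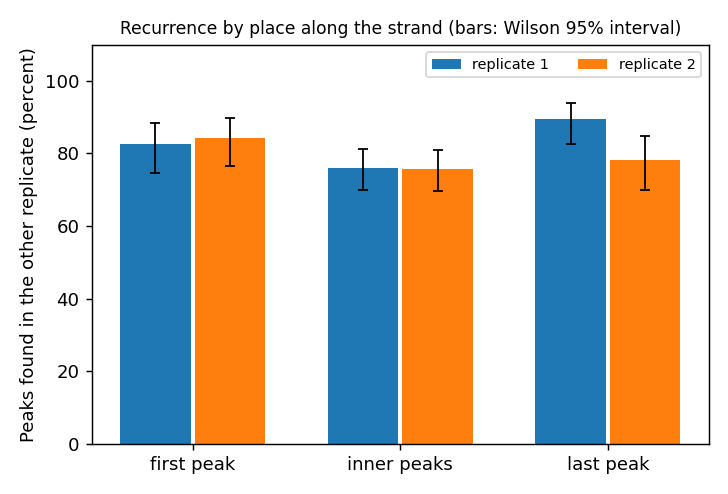
Percent of peaks of the 115 genes that overlapped a peak of the same gene in the other replicate, for first, inner and last peaks along the strand. Bars are shares in each replicate and whiskers Wilson 95% intervals of counting error; inner peaks have the lowest share in both replicates, 76.0% and 75.8%, and all 6 shares lie above 75%.

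Some first peaks lay at the annotated 5′ end of the gene. The midpoint was within 200 nt of the gene start for 35 of 115 first peaks in replicate 1 (30.4%) and 29 in replicate 2 (25.2%), and for no other peak of these genes. Those first peaks had median folds of 5.63 and 4.78, against 3.23 for the other 80 and 3.08 for the other 86. FOSL2, which encodes an AP-1 subunit, had a first peak of 40 in replicate 1 and 37.4 in replicate 2 at chr2:28392912-28393180 and chr2:28392912-28393210, followed by 2.9 and 1.86 and by 3.93, 1.68 and 2.04. CHD3, a NuRD remodelling ATPase gene like CHD4, had 58 in replicate 1 and 64.4 in replicate 2 for its first peak. The rest of CHD3 lay between 3.16 and 5.78 in replicate 1 and between 2.92 and 6.86 in replicate 2. On both genes every replicate showed 1 dominant peak at the 5′-most place. The midpoints of the FOSL2 peaks lay 188 and 203 nt from the annotated gene start. That of CHD3 lay at 143.5 nt in replicate 1 and at 3094 nt in replicate 2, where the peak runs over 4 blocks.

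Near the other end, 50 last peaks in replicate 1 (43.5%) and 58 in replicate 2 (50.4%) had their midpoint within 1000 nt of the annotated gene end. A dominant peak away from the first place was seen on SNX8, an endosomal sorting nexin gene. Its 3 peaks had folds of 3.8, 98.7 and 4.33 in replicate 1 and 2.84, 110 and 8.64 in replicate 2, with the middle one at chr7:2252430-2253119 and chr7:2252490-2253149. SCAF1, which encodes an SR-related splicing factor that binds the tail of RNA polymerase II, had its highest fold next to last. Its folds were 5.35, 1.95, 3.07, 3.49, 2.89, 8.2 and 2.06 in replicate 1 and 5.42, 2.45, 2.34, 3.12, 7.17 and 2.08 in replicate 2. The 1.95 peak alone had no partner, so 6 of 7 sites recurred.

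**Figure D3:**
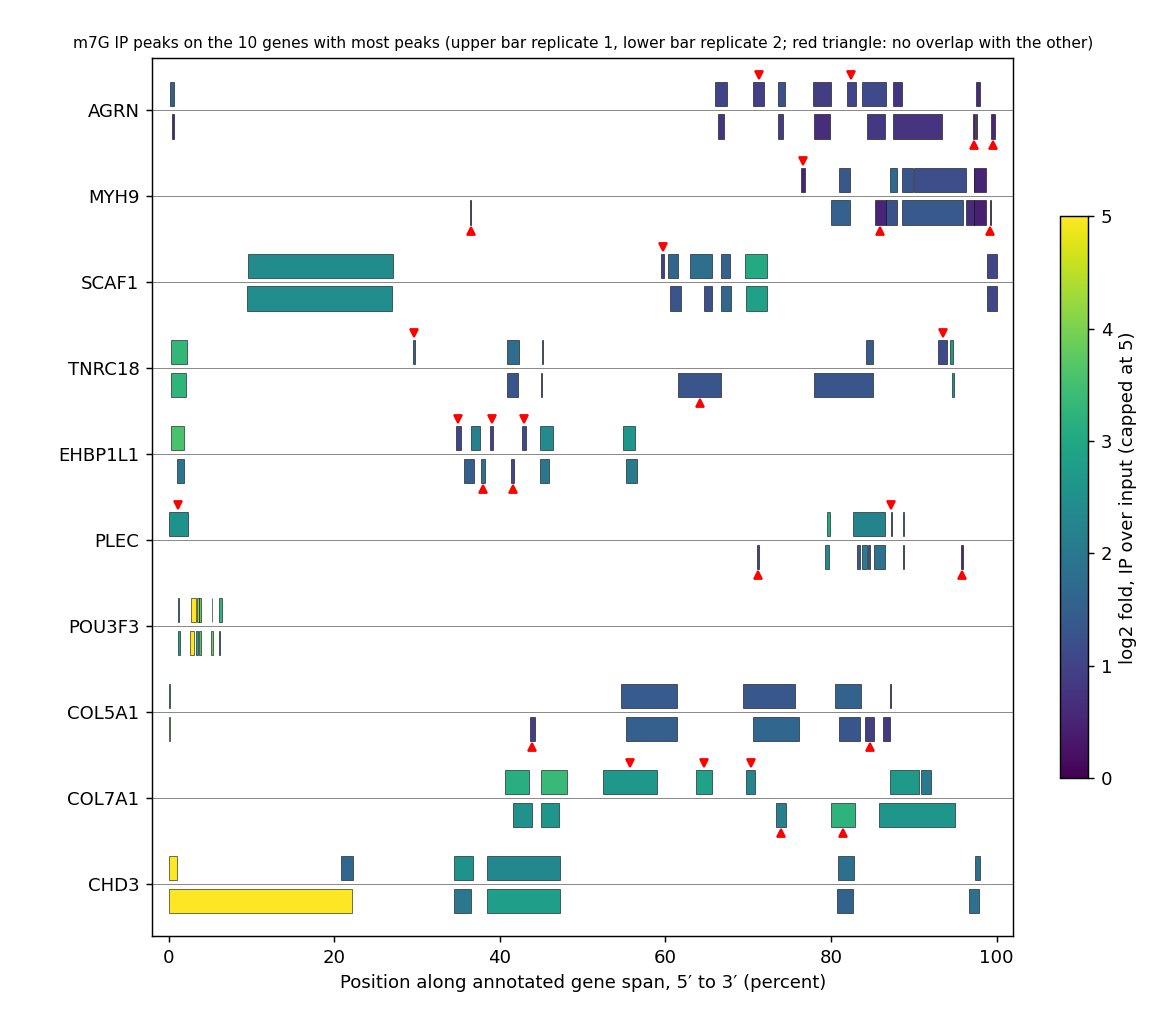
Peaks of the genes with the most rows, placed in percent of the annotated gene span from 5′ to 3′, with replicate 1 as the upper and replicate 2 as the lower bar and colour as the log2 fold capped at 5. Peaks of several blocks are drawn between their outer ends and red triangles mark peaks without a partner, of which AGRN had 2 in each replicate.

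Neighbouring peaks of a gene were separated by a wide range of genomic distances. The median gap was 1346.5 nt in replicate 1 (332 gaps, 95% interval of the median 987 to 1679, quartiles 328 and 6589) and 1523 nt in replicate 2 (338 gaps, 1112 to 1875, quartiles 357 and 6314). Between midpoints of peaks the medians were 2439.5 and 2421.5 nt, and as a median over genes the gaps were 2025 and 2217.5 nt. The shortest gap was 58 nt in both tables, and the longest was 206603 nt on ANKRD11 in replicate 1. Gaps under 100 nt numbered 26 and 22, and gaps of 1000 nt or more made up 55.4% and 56.5%. These are genomic distances, which include any intron between the peaks. No transcript models were used here, so they cannot be read as distances along the mRNA. On the 7 genes with intronless coding sequences the gaps were shorter, with medians of 238 nt (17 gaps, 59 to 1043) and 327.5 nt (18 gaps, 58 to 954).

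The gap between the first and second peak was longer than that between the last 2, with medians of 4446 against 928 nt in replicate 1 and 4894 against 832 nt in replicate 2. It was the longest gap of the gene in 70 and 78 of 115 genes, and the last gap was in 30 and 25. On AGRN the first gap was 23528 nt in replicate 1 and 23647 nt in replicate 2, and all later gaps were at most 3222 and 2363 nt. On COL5A1 it was 110534 and 88290 nt. On SCAF1 the first gap was 5892 and 6101 nt, then 4 and 3 gaps of 89 to 508 nt led to a last gap of 4848 nt in both.

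Gaps were also compared where both neighbouring peaks recurred. Such peaks overlap by the matching rule, so a likeness of their gaps follows in part from that rule and is no separate result. For 153 pairs of neighbours that were neighbours in both tables, the median gap was 1124 nt in replicate 1 and 1145 nt in replicate 2. The difference between replicates had a median of 89 nt, and 94 pairs (61.4%) differed by at most 100 nt. On POU3F3 the 5 gaps were 1043, 148, 59, 924 and 625 nt in replicate 1 and 954, 208, 58, 834 and 596 nt in replicate 2.

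**Figure D4:**
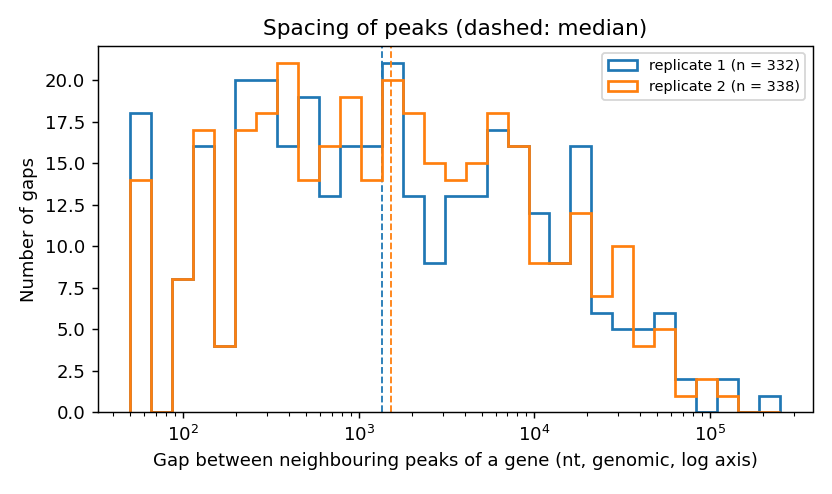
Number of gaps between neighbouring peaks of a gene by genomic length in nt on a log axis, for 332 gaps in replicate 1 and 338 in replicate 2. Dashed lines mark the medians of 1346.5 and 1523 nt, and the gaps run from 58 nt to 206603 nt in replicate 1 and to 130745 nt in replicate 2.

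The strength of recurring peaks was similar between replicates. For 346 peaks matched to their best overlap, log2 folds typically differed by 0.23 (median of the absolute differences), which is a factor of 1.17, and 95% differed by at most 0.91, or a factor of 1.88. For 2307 matched pairs on other genes the median factor was 1.24. When the matched peaks of a gene were taken in pairs, the stronger one was the same in both replicates in 328 of 409 pairs (80.2%), and every pair kept its order in 62 of 110 genes. The 110 include genes with only 1 comparable pair, such as BBC3 and CUEDC1, and pairs with equal folds were left out. Exact boundaries were seldom shared: 90 matched peaks had the same start, 88 the same end and 29 both (8.38%). Their midpoints differed by a median of 45 nt. Of the 553 peaks of 1 block, 522 (94.4%) had a length within 1 nt of a multiple of 30 nt.

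Some of the highest folds fell on a few repeated values. In replicate 1, 5 of the 15 peaks at or above 18.5 were whole multiples of 18.5, among them the POU3F3 peaks of 74 and 18.5, and in all of replicate 1 134 of 253 were (53.0%). In replicate 2, 7 of the 40 at or above 10 were whole multiples of 10, among them the first peak of C19orf68 (ZSWIM9 in RefSeq) at 70, against 148 of 509 in the whole table (29.1%). A multiple was allowed to differ by 0.05, or by 0.5 where the fold was deposited as a whole number. That C19orf68 peak was 18.5 in replicate 1. Whether folds on these steps rest on few input reads was not tested, since no counts were used here.

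**Figure D5:**
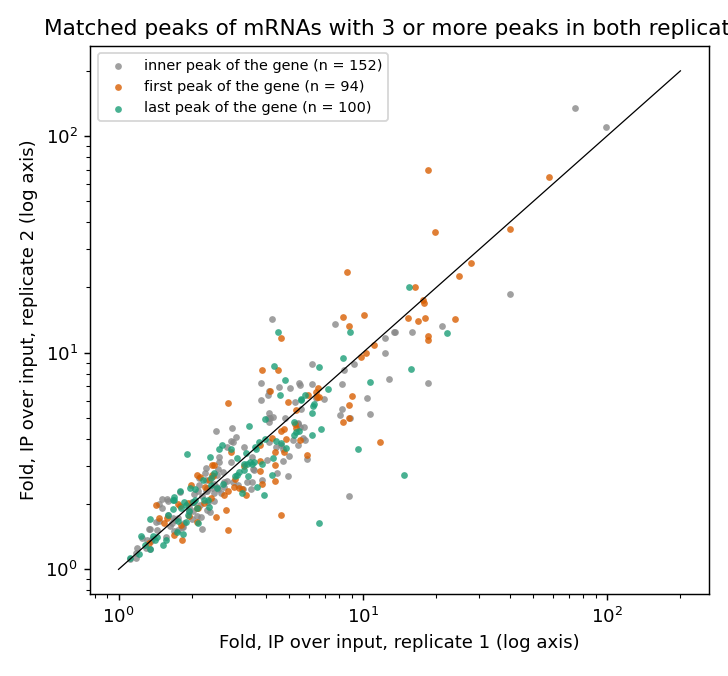
Fold of IP over input of the 346 matched peaks in replicate 1 (horizontal, log axis) and replicate 2 (vertical, log axis), coloured by the place of the peak on its gene. The line marks equal folds, the median pair differed by a factor of 1.17, and points far from the line include the first peak of C19orf68 at 18.5 and 70.

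Peaks without a partner were weaker, shorter and less significant. In replicate 1 the 84 unmatched peaks had a median fold of 2.54, length of 120 nt and log10 p of -4.42, against 3.17, 210 nt and -8.29 for the 363 recurring ones. In replicate 2 the 97 unmatched peaks had 2.00, 120 nt and -4.90, against 2.94, 211 nt and -9.71. With the peaks of each table ordered by p-value and split into 4 classes of about equal size, recurrence went from 112 of 112 in the most significant class to 64 of 113 in the least in replicate 1. In replicate 2 it went from 110 of 112 to 61 of 114. Of the unmatched peaks, 16 in replicate 1 and 11 in replicate 2 had a peak of the other table within 100 nt on the same gene.

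On 2 genes no peak recurred. ANKRD11, which encodes a chromatin co-regulator, had 3 peaks with folds of 3.44, 2.8 and 2.41 in replicate 1 and 5 with 2.23, 2.77, 2.34, 2.07 and 2.86 in replicate 2. HERC2, which encodes a very large ubiquitin ligase, had 7.79, 3.88 and 3.86 in replicate 1 and 3.93, 4.19 and 2.94 in replicate 2. Their folds lay within the range seen on the 115 genes, but none of the 14 peaks overlapped a peak of the other replicate. The closest were the third peaks of ANKRD11 in each replicate, 59 nt apart. The annotated spans are long, 222932 nt for ANKRD11 and 211140 nt for HERC2, against a median of 25933 nt for the 115 genes. COL9A2, TBC1D16 and PSAP, the last encoding the lysosomal precursor prosaposin, shared 1 site each. On TBC1D16, a Rab GTPase-activating protein gene, the peaks nearly met: the shared site joined chr17:79935102-79935192 in replicate 1 and chr17:79935192-79935312 in replicate 2 by a single base.

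The 5 genes with 4 or more rows in each table and every site shared were CHD3, COL4A2, HNRNPUL2, LMNA and POU3F3. HNRNPUL2, an hnRNP-like RNA-binding protein gene, had folds of 15.3, 1.95, 5.48 and 7.2 in replicate 1 and 14.4, 1.86, 7.22 and 6.77 in replicate 2. LMNA, which encodes the nuclear lamins A and C, had 1.82, 1.56, 1.43 and 1.69 in replicate 1 and 1.36, 1.41, 1.66 and 2.09 in replicate 2. HNRNPUL2 had its highest fold first in both tables, whereas the highest of LMNA was first in replicate 1 and last in replicate 2. On COL4A2, 7 rows of replicate 1 and 4 rows of replicate 2 made 4 sites. On CHD3 the first peak of replicate 2 covered the first and second of replicate 1. Sharing every site thus did not require the same number of rows.

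By function, each gene list is read against all 2342 genes with a peak in both tables, of which 4.91% are among the 115, and against the 65.7% of sites shared over the 115. Every list lay above the first share, at 10% to 27.3%, but the lists were made with results of these data known and nothing is drawn from that.

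Genes of the extracellular matrix carried some of the longest rows of peaks. Of 39 listed matrix genes and enzymes, 25 had a peak in both tables and 6 of these (24%, against 4.91% of all genes) belonged to the 115, namely AGRN, COL1A1, COL4A1, COL4A2, COL5A1 and COL7A1. They shared 25 of 42 sites (59.5%, against 65.7%). AGRN had folds of 2.82, 2, 1.87, 2.37, 1.84, 2.07, 2.18, 1.7 and 1.52 in replicate 1, all low and nearly even. In replicate 2 it had 1.52, 1.71, 1.84, 1.57, 1.75, 1.69, 1.37, 1.3 and 1.45. It shared 7 of 11 sites. Its highest fold was the first peak in replicate 1 and the third in replicate 2.

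COL5A1, which encodes a chain of the fibril-nucleating type V collagen, had a strong first peak at chr9:134641805-134642104 in both tables, with folds of 8.3 and 14.6. Its other peaks ran from 1.6 to 2.93 in replicate 1 and from 1.78 to 3.14 in replicate 2. COL7A1, the anchoring-fibril collagen gene, had folds of 8.81, 10.4, 6.34, 7.32, 4.8, 6.46 and 4.11 in replicate 1 and 5.71, 6.19, 4.44, 9.44 and 6.21 in replicate 2. COL5A1 shared 5 of 7 sites and COL7A1 3 of 8. Over all 9 collagen chain genes, grouped after the values were seen, 28 of 52 sites were shared (53.8%, 40.5 to 66.7), against 296 of 449 (65.9%) on the 99 genes outside the collagen and intronless groups. Collagen peaks were mostly split into blocks, 39 of 42 in replicate 1 and 36 of 42 in replicate 2, with up to 46 and 48 blocks on COL1A1. Over all peaks of the 115 genes, 38.5% and 38.6% had more than 1 block.

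Cytoskeletal genes gave 6 of the 22 listed ones with a peak in both tables (27.3%, against 4.91% of all), namely FLNA, ACTN4, PLEC, MYH9, LMNA and KIF1C. They shared 22 of 37 sites (59.5%, against 65.7%). MYH9, the heavy chain gene of non-muscle myosin IIA, had folds of 1.41, 2.56, 3.24, 2.47, 2.28, 1.33 and 1.41 in replicate 1. In replicate 2 it had 1.48, 2.91, 1.43, 2.36, 2.59, 1.53, 1.36 and 1.25. In both tables the highest fold lay at an inner peak, but at a different site in each. The outermost peaks were below 1.5, and the first peak had no partner in either table. FLNA, which encodes the actin cross-linker filamin A, had 1.9, 1.46, 2.03, 1.61, 2.09 and 1.75 in replicate 1 and 1.67, 2.23, 1.76 and 1.67 in replicate 2. All 4 peaks of FLNA in replicate 2 recurred, and 2 of replicate 1 did not. PLEC, the gene of the linker plectin, ran from 2.3 to 8.1 in replicate 1 and from 1.49 to 5.17 in replicate 2.

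Chromatin regulators contributed 5 of 22 genes with a peak in both tables (22.7%, against 4.91% of all), among them CHD3, CHD4, SMARCC2 and KDM2A. They shared 19 of 26 sites (73.1%, against 65.7%). CHD4 had folds of 2.34, 2, 2.01 and 1.81 in replicate 1, and all 4 recurred. In replicate 2 it had 2.59, 2.04, 1.56, 1.88, 2.05 and 1.91, of which the 1.56 and 1.88 peaks were alone. The first peak named for the closely related CHD3 was over 50 in both replicates, where that of CHD4 stayed under 3. No peak touched the first 50 bases of the listed CHD3 start at chr17:7888789. The annotated span of another gene, NAA38, also overlaps peaks named CHD3. Whether the first peak belongs to CHD3 mRNA was not tested.

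Transcription factors and co-regulators had 6 of 24 such genes (25%, against 4.91% of all), namely POU3F3, SOX4, SOX12, JUND, FOSL2 and MAZ. They shared 21 of 23 sites (91.3%, against 65.7%). RNA processing genes had 4 of 23 (17.4%, against 4.91%), namely SCAF1, PRRC2A, ACIN1 and SF1, with 14 of 20 sites shared (70%, against 65.7%). SF1, the branch point-binding splicing factor gene, had 3.11, 1.44 and 2.11 in replicate 1 and 2.37, 1.48, 1.23, 1.52 and 1.64 in replicate 2. Its first peak was the highest in both. PRRC2A, an RNA-binding protein gene, had 1.49, 4.8, 8.24 and 2.57 in replicate 1 and 1.77, 5, 5.51 and 3.59 in replicate 2. There the third was the highest in both and the first had no partner in either.

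Translation genes had 3 of 12 (25%, against 4.91% of all), namely EIF4G1, EEF2 and LARP1. They shared 10 of 15 sites (66.7%), close to the 65.7% over the 115. EIF4G1, the scaffold of the cap-binding initiation complex, had 4.63, 2.79 and 1.94 in replicate 1. In replicate 2 it had 11.7, 1.63, 1.61, 1.98, 2.57 and 1.86, of which those of 1.63, 1.61 and 1.98 were alone. EEF2, the gene of the elongation factor that moves the ribosome, had 1.79, 1.34, 1.29, 1.37, 1.18 and 1.35 in replicate 1 and 1.96, 1.24, 1.38 and 1.71 in replicate 2. LARP1, which encodes a cap- and TOP-mRNA-binding protein, had 2.23, 5 and 2.22 in replicate 1 and 1.72, 2.02, 3.33 and 2.59 in replicate 2. The first peak was highest on EIF4G1 and EEF2 in both tables and an inner peak was on LARP1. Signalling and receptor genes had 2 of 20 (10%, against 4.91%), namely ITGA3 and SCRIB, with 6 of 8 sites shared (75%, against 65.7%). ITGA3, an integrin subunit gene, had 8.77, 1.94 and 1.88 in replicate 1 and 13.3, 1.95, 1.57 and 1.99 in replicate 2, highest at the first peak in both.

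The lists were made with earlier results of these data known and hold 32 of the 115 genes, so 83 belong to none. Outside them, EHBP1L1, a Rab-binding protein gene, had 7 and 6 peaks. Its folds were 11.8, 2.01, 4.44, 1.97, 2.19, 5.16 and 6.17 in replicate 1 and 3.86, 2.79, 3.54, 2.06, 3.95 and 4.19 in replicate 2. The highest peak was the first in replicate 1 and the last in replicate 2. TNRC18 ran from 2.17 to 9.87 in replicate 1 and from 2.24 to 9.56 in replicate 2, with the first peak highest in both. CDK12, a kinase gene of transcription elongation, had 8.33, 7.57 and 3.85 in replicate 1 and 4.78, 4.74 and 3.06 in replicate 2. On CDK12 the peaks stood at both ends of a gap of 69494 nt in replicate 1 and 69583 nt in replicate 2. These gaps did not lie between the same peaks. In replicate 1 the gap began at the 7.57 peak, and in replicate 2 it ended at the 4.74 peak. Neither of these peaks had a partner, and CDK12 shared 2 of 4 sites.

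GAPDH, a glycolytic enzyme gene chosen here after its values were seen, showed that low folds also recurred. Its folds were 1.58, 1.11 and 1.11 in replicate 1 and 1.72, 1.12 and 1.13 in replicate 2, and every peak recurred. The 115 genes were spread over the genome with 18 on chromosome 19 (15.7%, against 11.0% of genes with a peak in both tables), 17 on chromosome 17 (14.8% against 7.69%) and 15 on chromosome 1 (13.0% against 10.2%). The annotated span of another protein-coding gene covered 10 of their peaks in each replicate, on 7 genes including ACTN4, CHD3 and PABPN1. For these peaks the gene name in the tables is the authors' choice.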

How the data were processed

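The series measured poly(A) RNA from untreated U2OS cells in 2 input and 2 anti-m7G IP libraries. The authors deposited 1 peak table for each IP replicate, so peaks were called per replicate, and the input libraries enter only through those calls. Per the file headers, each peak has a fold enrichment (a linear ratio of IP to input), a p-value, and the log10 of the p-value and of a false discovery rate, treated here as a deposited score. Reads were handled with STAR and the build GRCh38, per the submitters' processing notes, which give no STAR version. Not given in the sources used here are the peak caller, its settings and the scaling of the fold.

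Rows were counted by gene name. Peaks were compared by their blocks, on the same strand and under the same name, with at least 1 bp of overlap. A gap is the genomic distance between the outer ends of neighbouring peaks. RefSeq genes of GRCh38.p14 with the same symbol were accepted within 2000 nt of a peak. All 115 matched, 5 of them through a synonym (C19orf68 is ZSWIM9). First bases came from the RefSeq promoter table. Coordinates are 1-based, and neither a genome nor transcript models were used.

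The members and gene lists were chosen with earlier results of these data known, so shares have Wilson 95% intervals and no test was run. The rule for named genes took the 10 with the most rows, up to 5 with every peak recurring and 4 or more rows in each table, the 5 with the lowest recurring share, the 3 with the shortest and the 3 with the longest median gap, the 5 with the highest lower fold, up to 3 of each list, and AGRN, SCAF1, POU3F3, CHD3 and COL5A1 in any case. Some genes that meet this rule are not reported here. Other genes named were chosen after their values were seen. Overlap, site joining and strand order were tested on simulated data first. Alternatives were other overlap rules, row minimums, gap measures, stronger peaks alone and each replicate left out. Scripts ran in Python 3.11.15 using pandas 2.3.3, numpy 2.4.6, matplotlib 3.10.9 and scipy 1.17.1.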

Additional observations from a re-analysis of the deposited data

How the results depend on the processing

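Of 84 values computed under an alternative, 54 stayed within the interval of the value reported (counts within 1.5 times) and 30 did not. Among the 54, 12 came from dropping repeated positions and 6 from overlap with a peak of any name, alternatives that left every value unchanged. Under the stricter overlap rules, 1 value stayed with 50% reciprocal overlap and 0 with midpoints within 100 nt. With 4 rows as the minimum there were 39 genes, 5 of them with every site shared. With 50% reciprocal overlap, 61.1% and 60.3% of peaks recurred, 13 genes shared every site, and the shares for first, inner and last sites were 67.0%, 34.5% and 51.3%. With midpoints within 100 nt these were 55.5% and 55.0%, 11 genes, and 53.9%, 28.7% and 56.5%, and the strongest peak was the same in 51.3% of genes. With the more significant 50% of peaks there were 45 genes, 17 with every site shared, 86.4% and 84.7% of peaks recurring, 69.3% of inner sites shared, the strongest peak first in 55.6% and 55.6% of genes, and a median gap of 1929 nt in replicate 2. Measured between midpoints the median gaps were 2439.5 and 2421.5 nt, and as a median over genes 2025 and 2217.5 nt. With genes chosen from a single table (277 without replicate 1, 208 without replicate 2, both including all 115), recurrence ranged from 66.8% to 84.7% of replicate 1 peaks and from 63.1% to 81.0% of replicate 2 peaks. Inner sites had the lowest share under each overlap rule given here. This follows in part from the counting, since a failed match at any place adds an inner site, and nothing is drawn from it. Joining peaks under 100 nt apart left 99 genes.

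No paired analysis was possible because the results come from no test and the input libraries have no table here. With 1 peak table for each of 2 IP libraries and no read counts, no error can be set for the fold of a single peak. The tables list peaks past a threshold alone, so the enrichment at a place without a peak is unknown.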
